A study of Mus musculus with 6 samples.

Results

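The genes described here encode the T cell receptor complex, its coreceptors and the kinases that act first when it binds antigen. They are Cd3d, Cd3e, Cd3g, Cd247, Cd4, Cd8a, Cd8b1, Lck, Zap70 and Trbc2, taken by gene symbol, and each of the 10 symbols matched 1 gene among the 55536 genes with raw counts, of which 34685 were also listed with a symbol. RNA sequencing was performed on tumors grown from HCA-1, a mouse hepatocellular carcinoma (HCC) cell line, after implantation into the liver of male C3H mice 6 to 8 weeks old (C3H/HeNCrNarl in the study's methods). The control group was untreated and held tumors 5, 6 and 7. The GOx-DOX-LGP group held tumors 1, 2 and 5 and received, by intravenous injection, nanogels of lipid, gelatin and protamine (LGP) that carried glucose oxidase (GOx), an enzyme that consumes glucose, and the chemotherapeutic doxorubicin (DOX). The labels give injections on days 18, 19 and 20 yet set the transcriptome analysis at day 17, 3 h into circulation, so the interval between treatment and sampling is uncertain. For tumors on the same injection days that were used for PCR, the study's methods give the harvest as the day after the last injection; they give no harvest day for the sequenced tumors. The line is 1 transplanted tumor, every animal was male, and no group received empty nanogels among these libraries.

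T cells recognize peptides on MHC molecules through the T cell receptor, a pair of variable chains that has no signaling tail of its own. The CD3 chains and the zeta chain carry the signal, and the coreceptors CD4 and CD8 bind MHC class II and class I, respectively, and bring the kinase LCK to the complex. CD4 is typical of helper and regulatory T cells and CD8 of cytotoxic T cells, although mouse dendritic cells can also carry CD8 alpha and some myeloid cells CD4. In bulk tumor RNA, more T cells and more receptor RNA per T cell cannot be told apart.

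Cd3g, Cd3d and Cd3e, which encode the gamma, delta and epsilon chains of CD3, lie next to each other on chromosome 9 (GRCm38, GENCODE M21 annotation). Cd3g (44969572 to 44980431, minus strand) and Cd3d (44981786 to 44987339, plus strand) point away from each other with 1354 bases between them, and Cd3e (44998740 to 45009627, minus strand) lies 11400 bases beyond Cd3d. Cd8b1 (71322788 to 71337494) and Cd8a (71373427 to 71379173), the beta and alpha chains of CD8, lie on the plus strand of chromosome 6 with 35932 bases between them. Cd4 lies on chromosome 6 as well (124864692 to 124888221, minus strand), as does Trbc2 (41546730 to 41548352, plus strand), the second constant region of the receptor's beta chain. Lck (4, 129548344 to 129573641), Zap70 (1, 36761798 to 36782818) and Cd247 (1, 165788681 to 165877277) lie apart from these clusters.

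The start regions of the CD3 trio and of Cd8a are shown because the CD3 genes sit together and had nearly parallel levels, and because Cd8a is set against Cd4 below. Each runs from 250 bases before to 50 bases after the RefSeq start (GRCm38.p6) and is written 5′ to 3′ on the strand of its gene.
Cd3g (chr9:44980382-44980681, minus strand): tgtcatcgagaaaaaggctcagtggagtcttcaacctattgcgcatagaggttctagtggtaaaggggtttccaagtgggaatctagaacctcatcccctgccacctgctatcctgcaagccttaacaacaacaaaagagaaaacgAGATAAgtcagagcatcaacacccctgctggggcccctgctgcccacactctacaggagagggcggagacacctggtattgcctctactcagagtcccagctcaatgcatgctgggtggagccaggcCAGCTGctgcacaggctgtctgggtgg
Cd3d (chr9:44981536-44981835, plus strand): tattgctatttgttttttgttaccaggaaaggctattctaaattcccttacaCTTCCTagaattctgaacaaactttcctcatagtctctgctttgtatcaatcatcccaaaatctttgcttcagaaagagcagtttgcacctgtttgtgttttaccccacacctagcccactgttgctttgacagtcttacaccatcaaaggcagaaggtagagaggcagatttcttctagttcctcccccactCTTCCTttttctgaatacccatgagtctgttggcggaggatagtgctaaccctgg
Cd3e (chr9:45009562-45009861, minus strand): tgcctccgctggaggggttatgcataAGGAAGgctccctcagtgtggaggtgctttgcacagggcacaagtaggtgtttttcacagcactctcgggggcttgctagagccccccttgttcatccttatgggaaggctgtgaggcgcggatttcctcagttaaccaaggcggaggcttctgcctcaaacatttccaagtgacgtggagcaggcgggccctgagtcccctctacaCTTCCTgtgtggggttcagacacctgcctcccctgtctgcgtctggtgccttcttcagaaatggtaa
Cd8a (chr6:71373177-71373476, plus strand): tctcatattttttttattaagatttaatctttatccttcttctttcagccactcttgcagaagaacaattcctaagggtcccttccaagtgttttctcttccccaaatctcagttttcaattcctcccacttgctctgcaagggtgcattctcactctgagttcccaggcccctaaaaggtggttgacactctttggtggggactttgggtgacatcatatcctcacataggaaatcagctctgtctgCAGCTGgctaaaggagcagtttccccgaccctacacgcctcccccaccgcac
Capitals mark matches, on either strand, to 4 short motifs of factors active in T cells. The motifs do not overlap each other as letter strings. The ETS core, AGGAAG, read as CTTCCT on the other strand, occurred 2 times each in the Cd3d and Cd3e windows and not in those of Cd3g and Cd8a. The E-box CAGCTG occurred in the Cd3g and Cd8a windows, and the GATA core AGATAA occurred in the Cd3g window. The RUNX core TGTGGT occurred in none of the 4 windows. Over 10 windows of 7 of these genes, 7 held an ETS core, against 35.4% of all 32851 RefSeq windows of this length. The E-box was in 2, the RUNX core in 2 and the GATA core in 1, against 16.3%, 16.8% and 11.2% of all windows. Lck and Zap70 gave more than 1 window each. Counted by gene, 5 of the 7 held an ETS core in at least 1 window. Windows of Cd4, Cd8b1 and Trbc2 were not used here. A match in these letters is a description of the sequence, not of binding.

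Libraries held 15529940 to 18401178 counts. The untreated tumors were unlike one another. The summed level of 12 hepatocyte genes reached 709 CPM in control 5, 135313 in control 6 and 217461 in control 7, and 3818, 1547 and 2124 CPM in treated tumors 1, 2 and 5, in TMM-normalized CPM, which sets each count against the scaled total of its library. Alb, which encodes albumin and is the most abundant of these genes, had 353, 73804 and 128244 CPM in the controls and 1893, 733 and 1061 CPM in the treated tumors. Controls 6 and 7 therefore carried far more hepatocyte RNA than control 5 or any treated tumor, and its part in the differences below was not tested. Of 6 HCC and epithelial genes used to check the labels, the keratins Krt18 (336 to 790 CPM) and Krt8 (313 to 540 CPM) were abundant in all 6 libraries, whereas the classical HCC markers were low, with Afp at 2.25 to 13.2 CPM, Gpc3 at 0.784 to 2.29 CPM and H19 at 0.312 to 2.15 CPM.

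All 10 genes had a higher mean in the treated tumors, with a median log2 fold change of 1.46 and a range from 0.40 to 1.73, where the median over all 15374 genes tested was 0.02. None of them passed edgeR's quasi-likelihood test at an adjusted p (Benjamini-Hochberg) under 0.05, and neither did any other gene (0.0% called, smallest adjusted p 0.247). At an unadjusted p under 0.05, 5 of the 10 were higher (Cd3d, Cd3e, Cd3g, Cd247 and Lck), where 2.87% of all genes were. DESeq2's Wald test called the same 5 higher at an adjusted p under 0.05, against 0.684% of all genes. In 7 of the 10, every treated tumor lay above every control, as in 8.87% of all genes. The exceptions were Trbc2, Cd4 and Zap70.

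The tumors kept nearly the same order from gene to gene. Treated tumor 5 was the highest library for 10 of 10 genes, control 7 the lowest for 9, and control 5 the highest control for 9. Zap70 was the exception in both of the latter, with control 7 its highest control. The order of the controls was not particular to these genes. In controls 5, 6 and 7, leukocyte genes summed to 855, 605 and 463 CPM and dendritic cell genes to 135, 55.9 and 36.7 CPM. The sums of the macrophage, NK, T lineage and HCC lists had the same control order, whereas those of the hepatocyte and B cell lists did not. Single genes could differ from the sum of their list. In the HCC list, Krt8, Krt18 and Epcam had the order of the sum. Afp (4.91, 10.3 and 13.2 CPM in controls 5, 6 and 7), H19 (0.395, 1.70 and 2.15) and Gpc3 (1.10, 2.29 and 2.15) were instead lowest in control 5. The share of all genes with the control order of the sums was not counted. Control 5, the untreated tumor with little hepatocyte RNA, exceeded at least 1 treated tumor for 2 genes, Trbc2 and Cd4. The labels do not say whether the libraries came from separate mice, so every p-value measures only the spread between these samples.

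**Figure D1:**
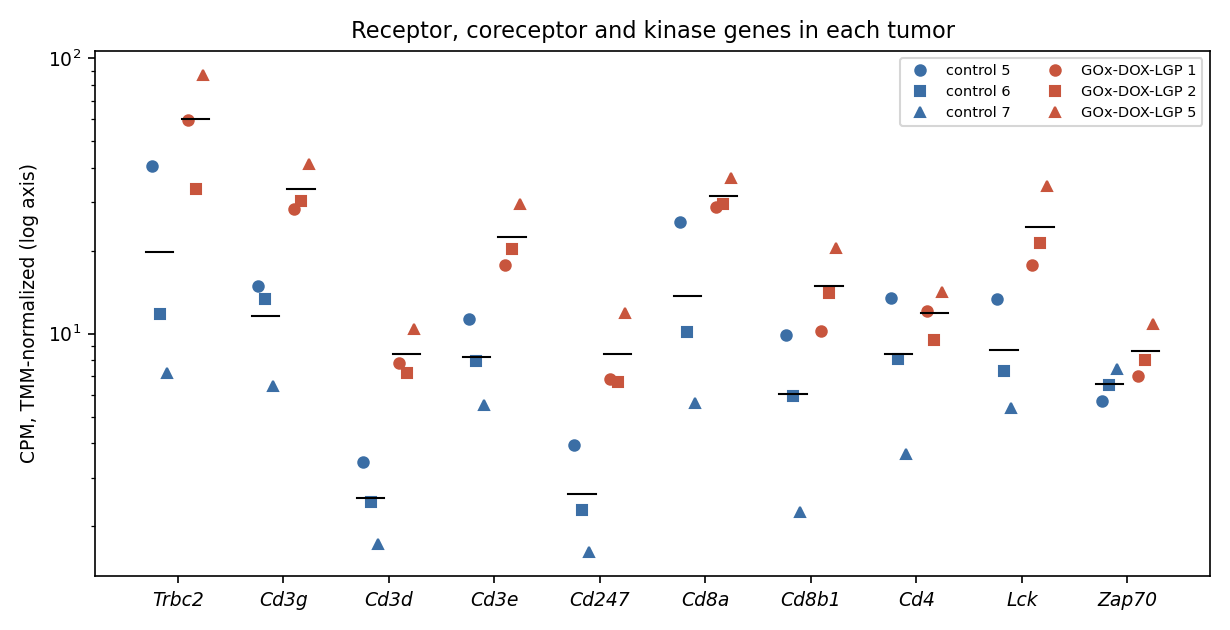
TMM-normalized CPM (log axis) of the 10 genes in each tumor, with untreated controls in blue, GOx-DOX-LGP tumors in red, 1 symbol per tumor and a black line at each group mean. The 3 red points lie above the 3 blue points for 7 genes, and the groups overlap for Trbc2, Cd4 and Zap70.

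The CD3 chains and the zeta chain separated the groups most clearly. Cd3d, the delta chain, stood at 3.42 CPM in control 5, 2.46 in control 6 and 1.72 in control 7, and at 7.81, 7.20 and 10.4 CPM in treated tumors 1, 2 and 5. Even the lowest treated tumor was well above the highest control. Its mean level was 2.53 ± 0.853 CPM (SD, n = 3) in controls and 8.47 ± 1.70 CPM in treated tumors, a log2 fold change of 1.73 (SE 0.36, edgeR adjusted p = 0.247, DESeq2 adjusted p = 0.00114).

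Cd3g, the gamma chain and the most abundant of the CD3 genes, had 14.9, 13.3 and 6.46 CPM in the controls and 28.4, 30.2 and 41.4 CPM in the treated tumors. Controls 5 and 6 were close, control 7 was lower, and all treated tumors were above them. The log2 fold change was 1.52 (SE 0.37, edgeR adjusted p = 0.247, DESeq2 adjusted p = 0.00697). Cd3e, the epsilon chain, which pairs with either of the others, had 11.3, 7.97 and 5.49 CPM in the controls and 17.7, 20.2 and 29.5 CPM in the treated tumors. Again no control reached a treated tumor, with a log2 fold change of 1.44 (SE 0.36, edgeR adjusted p = 0.247, DESeq2 adjusted p = 0.01). Antisense transcript Gm48719 overlaps an exon of Cd3e, and 2.16% of the 50-base stretches of Cd3e occur in another gene, so its counts could in small part come from elsewhere.

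Cd247 encodes the zeta chain, which carries more signaling motifs than any other subunit. Its levels were 3.95, 2.29 and 1.61 CPM in the controls and 6.82, 6.66 and 11.9 CPM in the treated tumors, without overlap. Its log2 fold change was 1.67 (SE 0.45, edgeR adjusted p = 0.247, DESeq2 adjusted p = 0.0152). More of its sequence, 55.88% of 50-base stretches, also lies in other genes, mostly in exons of Pou2f1 on the opposite strand, and the sources used here do not say whether counting used strand. Pou2f1 itself stood at 38.7, 17.3 and 17.6 CPM in the controls and 29.0, 31.7 and 24.7 CPM in the treated tumors (log2 fold change 0.21, SE 0.37). The part of Pou2f1 reads in the Cd247 counts was not tested.

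Within a library, the CD3 genes stayed close to a fixed proportion. The ratio of raw counts of Cd3g to Cd3e was 1.32, 1.67 and 1.17 in the controls and 1.60, 1.5 and 1.40 in the treated tumors, a log2 difference of 0.13 with overlapping groups (two-sided exact permutation p = 0.5). For Cd3d to Cd3e it was 0.305, 0.312 and 0.320 in the controls and 0.441, 0.358 and 0.353 in the treated tumors. That ratio was higher in every treated tumor, by 0.29 on the log2 scale (exact permutation p = 0.1, the smallest that 3 against 3 allows, and 0.2 after adjustment over the 22 ratios compared). Only 0.0781% of genes had a ratio to Cd3e that was higher in every treated tumor and 69.0% had one that was lower, as Cd3e had a log2 fold change of 1.44 and the median gene one of 0.02. Across the 6 tumors, Pearson's r of log2 CPM between the CD3 and zeta genes ran from 0.972 to 0.995. The points share library and treatment, so these values are a description only.

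Trbc2, the constant region of the beta chain, had the largest standard error of the 10. It stood at 40.4, 11.8 and 7.21 CPM in the controls and 59.5, 33.5 and 87.0 CPM in the treated tumors. Control 5 was above treated tumor 2, so the groups overlapped despite a log2 fold change of 1.59 (SE 0.71, edgeR adjusted p = 0.311). Trbc2 shares 44.01% of its 50-base stretches with Trbc1, its near copy, and reads there cannot be assigned to either with certainty.

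The other constant regions were read beside it. Trac, the constant region of the alpha chain, had 13.2, 7.12 and 2.91 CPM in the controls and 15.9, 15.6 and 22.8 CPM in the treated tumors, all treated above all controls (log2 fold change 1.21, SE 0.55, edgeR adjusted p = 0.311). Trbc1 had 8.38, 4.58 and 1.08 CPM against 5.93, 20.6 and 12.9 CPM, with overlap. Of the gamma chain genes, Tcrg-C2 had 5.31, 1.02 and 2.91 CPM against 7.56, 8.62 and 4.01 CPM and Tcrg-C4 0.658, 0.424 and 1.72 CPM against 0.445, 0.980 and 2.65 CPM, both with overlap. Tcrg-C1, Tcrg-C3 and Trdc, the delta chain constant region, did not pass the filter on low counts. Of these, Trdc stood between 0.0989 and 0.884 CPM, and Tcrg-C1 reached 2.60 CPM in treated tumor 2 and at most 0.323 CPM elsewhere. In all, 4 of 7 constant regions were tested, each had a positive log2 fold change, and none was called by either tool.

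The coreceptors did not separate the groups alike. Cd8a, the alpha chain of CD8, had 25.4, 10.1 and 5.60 CPM in the controls and 28.8, 29.5 and 36.6 CPM in the treated tumors. The treated tumors all lay above the controls, but control 5 was within a few CPM of treated tumor 1 while controls 6 and 7 were far lower. The log2 fold change was 1.20 (SE 0.55, edgeR adjusted p = 0.317, DESeq2 adjusted p = 0.221).

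Cd8b1, the beta chain, which T cells carry more selectively than the alpha chain, had 9.87, 5.94 and 2.26 CPM in the controls and 10.2, 14.0 and 20.4 CPM in the treated tumors. Control 5 and treated tumor 1 were almost equal, and there was no overlap. Its log2 fold change was 1.29 (SE 0.57, edgeR adjusted p = 0.303, DESeq2 adjusted p = 0.18). Some of its 50-base stretches, 6.28%, also occur in another gene.

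Cd4 had 13.5, 8.06 and 3.66 CPM in the controls and 12.1, 9.45 and 14.2 CPM in the treated tumors. Control 5 exceeded 2 of the 3 treated tumors and the groups overlapped, with a log2 fold change of 0.49 (SE 0.49, edgeR adjusted p = 0.574, DESeq2 adjusted p = 0.596). The direction for Cd4 depended on the scaling and on which untreated tumors were used. Its log2 fold change was -0.34 when libraries were scaled to 10 leukocyte genes, where the median of all genes was -1.04, and -0.17 with control 5 as the only control, whereas Cd8a and Cd8b1 kept a positive sign under both.

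The contrast of Cd4 with the CD8 genes was made within each library, where depth and scaling cancel. The ratio of Cd8a to Cd4 counts came to 1.88 for control 5, 1.25 for control 6 and 1.52 for control 7, and to 2.38, 3.11 and 2.59 for treated tumors 1, 2 and 5. No control reached a treated tumor. The mean log2 ratio was 0.61 ± 0.29 (SD, n = 3) in controls and 1.42 ± 0.20 in treated tumors, a difference of 0.81 (exact permutation p = 0.1, adjusted p = 0.2), and single treated and control tumors differed by 0.34 to 1.32. Among all genes, 3.42% had a ratio to Cd4 that was higher in every treated tumor.

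As a share of the pair, Cd8a made up 65.3% of counts in control 5 (95% exact binomial interval 62.1 to 68.4), 55.6% in control 6 (48.7 to 62.4) and 60.5% in control 7 (49.3 to 70.8). It made up 70.5% in treated tumor 1 (67.2 to 73.6), 75.7% in treated tumor 2 (72.6 to 78.7) and 72.1% in treated tumor 5 (69.2 to 74.9). The intervals cover counting error only. Control 7, with 34 Cd4 counts, had an interval that overlapped those of treated tumors 1 and 5, and the interval of control 5 overlapped that of treated tumor 1.

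Cd8b1 gave a similar difference from Cd4. Its ratio to Cd4 was 0.733, 0.738 and 0.623 in the controls and 0.849, 1.48 and 1.44 in the treated tumors. Treated tumor 1 lay just above the controls and treated tumors 2 and 5 were far above them, a mean difference of 0.81 on the log2 scale (exact permutation p = 0.1, adjusted p = 0.2). Leaving out any 1 library kept both CD8 ratios to Cd4 positive. Between the CD8 chains there was no shift in either direction beyond the spread. Cd8b1 to Cd8a was 0.390, 0.590 and 0.410 in the controls and 0.356, 0.476 and 0.557 in the treated tumors, a log2 difference of 0.00 with single tumors differing by -0.73 to 0.52 (exact permutation p = 1).

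Against Cd3e, the CD8 genes held their proportion and Cd4 was lower on average. Cd8a to Cd3e differed by 0.01 on the log2 scale, and Cd8b1 to Cd3e also by 0.01, both with overlap (exact permutation p = 1). Cd4 to Cd3e was 1.19, 1.01 and 0.670 in the controls and 0.680, 0.469 and 0.480 in the treated tumors. Control 7 fell just below treated tumor 1, so the groups overlapped, with a log2 difference of -0.80 (exact permutation p = 0.2, adjusted p = 0.314). Control 7 also had a Cd4 count low enough to widen its ratio.

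**Figure D2:**
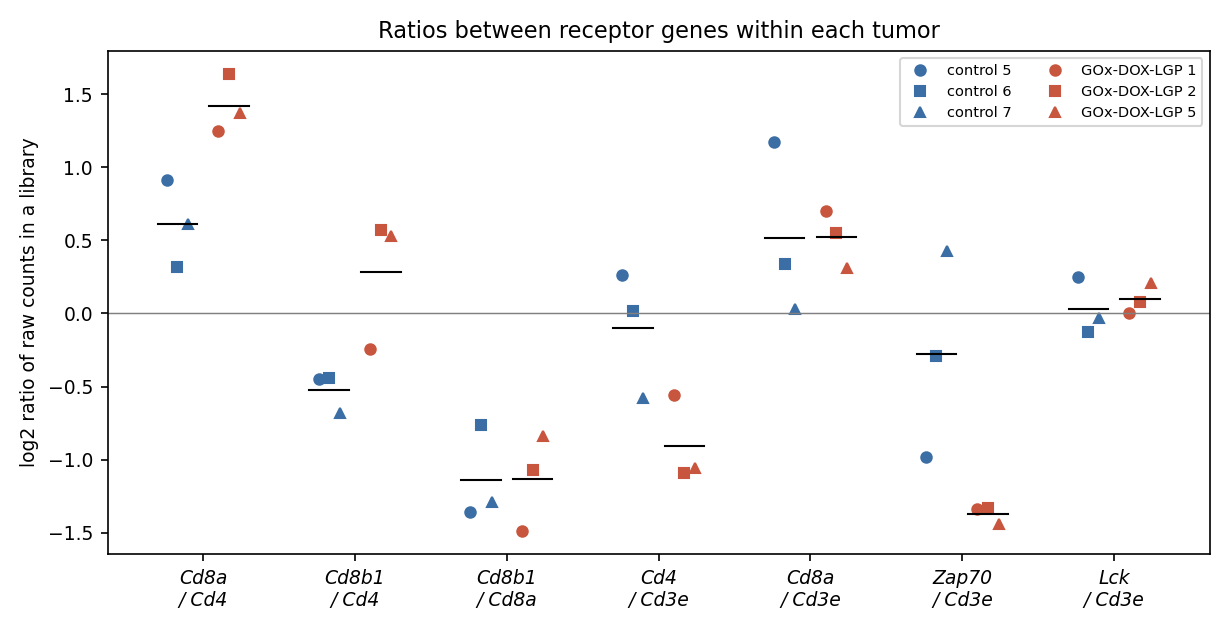
Log2 ratio of raw counts between pairs of genes within each tumor, with controls in blue, GOx-DOX-LGP tumors in red and a black line at each group mean. Red points lie above all blue points for Cd8a to Cd4 and Cd8b1 to Cd4 and below them for Zap70 to Cd3e. The groups overlap for the other 4 pairs, for Cd4 to Cd3e only at control 7 and treated tumor 1.

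The kinases differed as well. Lck, the kinase bound to the coreceptors, had 13.4, 7.29 and 5.38 CPM in the controls and 17.7, 21.3 and 34.2 CPM in the treated tumors. It followed the CD3 genes, with r from 0.961 to 0.993 over the 6 tumors and a ratio to Cd3e that differed by 0.07 on the log2 scale (exact permutation p = 0.7). Its log2 fold change was 1.48 (SE 0.44, edgeR adjusted p = 0.247, DESeq2 adjusted p = 0.036).

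Zap70, which binds the phosphorylated chains of the complex, had 5.70, 6.53 and 7.43 CPM in the controls and 7.02, 8.03 and 10.8 CPM in the treated tumors. Its range was the narrowest of the 10 genes, control 7 exceeded treated tumor 1, and the log2 fold change of 0.40 (SE 0.29) was not called (edgeR adjusted p = 0.466, DESeq2 adjusted p = 0.445). Relative to Cd3e it was 0.507, 0.820 and 1.35 in the controls and 0.396, 0.399 and 0.367 in the treated tumors. Every treated tumor was lower, by 1.09 on the log2 scale on average (-1.09, exact permutation p = 0.1, adjusted p = 0.2), as were 69.0% of all genes. Its correlation with Cd4 was 0.121 and with Cd8a 0.327, where that of Cd4 with Cd8a was 0.920. Scaled to the leukocyte genes, its log2 fold change was -0.78, against the same median of -1.04 over all genes.

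Ptprc encodes CD45, a phosphatase present on all leukocytes, and stood at 116, 69.2 and 39.3 CPM in the controls and 90.8, 115 and 116 CPM in the treated tumors. As a ratio to Ptprc, 7 of the 10 genes were higher in every treated tumor, where 3.32% of all genes were. The log2 differences of these 7 lay between 0.82 for Cd3e and 1.11 for Cd3d (exact permutation p = 0.1 each, adjusted p = 0.2). For Cd3d the ratio was 0.0297, 0.0361 and 0.0451 in the controls and 0.0863, 0.0628 and 0.0902 in the treated tumors. Cd4 to Ptprc was 0.116, 0.117 and 0.0944 in the controls and 0.133, 0.0824 and 0.123 in the treated tumors, a log2 difference of 0.02 with a range over tumor pairs from -0.51 to 0.50. The ratios of Trbc2 (log2 difference 1.24) and Zap70 (log2 difference -0.27) to Ptprc overlapped between groups as well.

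How far the 10 genes separated depended on the untreated tumors and on the scaling. Control 5 as the only control was an alternative chosen after the data were seen. In it, that single tumor is assumed to vary like the treated ones. The median log2 fold change of the 10 was then 0.74, where that of all genes was 0.03. Without control 5 the median of the 10 was 1.92 and 8 of them were called, as were 7745 of 16249 genes in all. Scaled to 10 leukocyte genes, which lowered the median of all genes to -1.04, the median of the 10 was 0.51, and 5 of them kept every treated tumor above every control, where 0.735% of genes did. With the hepatocyte genes as a covariate the median of the 10 was 1.09. In that edgeR fit none of the 15374 genes tested was called, these 10 included. At an unadjusted p under 0.05, 7 of the 10 passed there, as did 1126 of the 15374 genes.

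**Figure D3:**
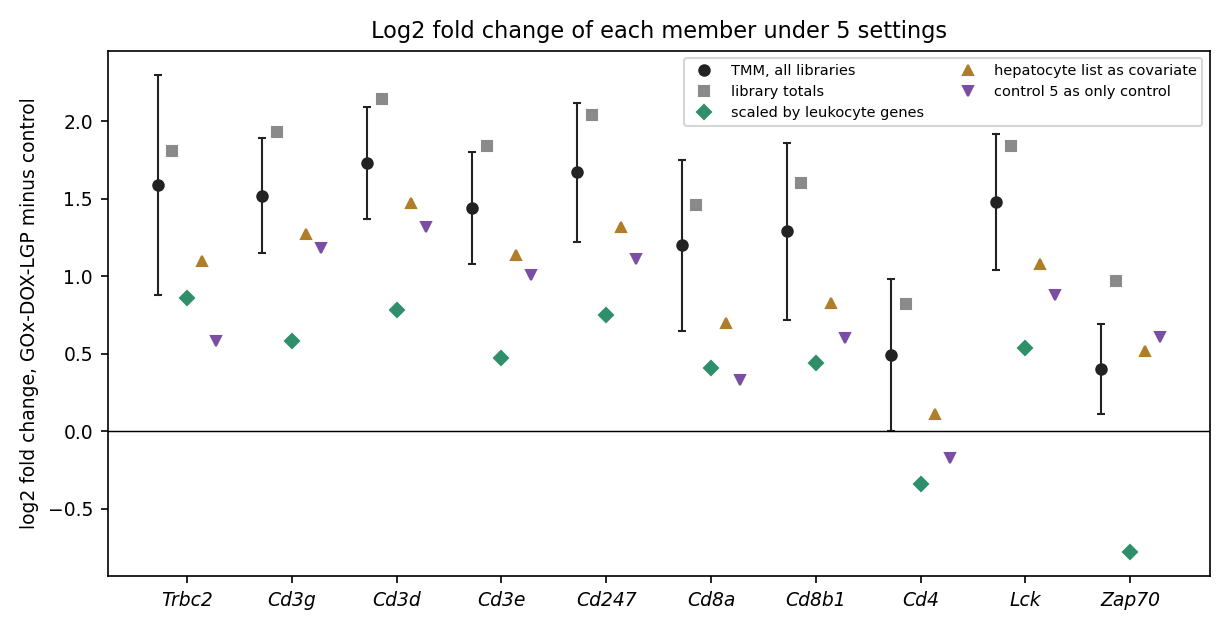
Log2 fold change of each gene, GOx-DOX-LGP minus control, under 5 settings, where the black point and bar are the TMM estimate and its standard error (3 tumors per group). Of the 10 genes, 8 lie above 0 in all settings shown, whereas Cd4 is below 0 with leukocyte scaling (-0.34) and with control 5 as the only control (-0.17), and Zap70 is below 0 with leukocyte scaling (-0.78).

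Levels of different genes were compared per kilobase of exon. Trbc2 was the highest of the 10 and Cd247 the lowest in all 6 tumors. In controls the means ran from Trbc2 (28.6 ± 26.0 CPM per kb, SD, n = 3) through Cd8b1 (4.06 ± 2.57), Cd8a (3.76 ± 2.85), Cd3g (3.53 ± 1.37), Lck (2.97 ± 1.43), Zap70 (2.19 ± 0.288), Cd4 (2.08 ± 1.22), Cd3e (2.02 ± 0.712) and Cd3d (1.40 ± 0.470) to Cd247 (0.491 ± 0.225). Neighbors in this order were closer than the sum of their SDs, apart from Cd3d and Cd247.

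In treated tumors the order was Trbc2 (86.7 ± 38.7 CPM per kb), Cd3g (10.2 ± 2.14), Cd8b1 (10.0 ± 3.46), Cd8a (8.70 ± 1.19), Lck (8.33 ± 2.96), Cd3e (5.51 ± 1.52), Cd3d (4.67 ± 0.938), Cd4 (2.95 ± 0.584), Zap70 (2.88 ± 0.658) and Cd247 (1.59 ± 0.555). Trbc2 and Cd3g, Cd3d and Cd4, and Zap70 and Cd247 were further apart than the sum of their SDs, and the other neighbors were not. Cd4 and Zap70 thus stood below Cd3e and Cd3d in the treated tumors, whereas their control means lay above those of both. Of these control gaps, that of Zap70 to Cd3d exceeded the sum of the SDs and the others did not.

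The wider signaling pathway was read from a list of 40 genes, 38 of which passed the filter. Of these, 32 had a positive log2 fold change, with a median of 0.55, and none was called by edgeR. DESeq2 called 3 higher, namely Themis, Cd2 and Cd6, where it called 0.684% of all genes higher. In edgeR, 11 of 38 had an unadjusted p under 0.05 in either direction, as did 17.5% of all genes. In 14 of 38 every treated tumor lay above every control (8.87% of all genes) and in 3 every treated tumor lay below (8.31% of all genes).

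Themis, a scaffold that tunes receptor signals, had 3.20, 2.29 and 1.61 CPM in the controls and 5.14, 6.17 and 4.68 CPM in the treated tumors (log2 fold change 1.15, SE 0.36, DESeq2 adjusted p = 0.0429). Cd2, an adhesion and costimulatory receptor, had 5.88, 4.83 and 2.58 CPM against 8.40, 9.65 and 16.4 CPM (1.36, SE 0.43, DESeq2 adjusted p = 0.0473). Ubash3a, a negative regulator of ZAP70 signaling, had 2.15, 2.29 and 1.29 CPM against 2.82, 5.93 and 5.93 CPM (1.34, SE 0.44, DESeq2 adjusted p = 0.0533). Each was higher in every treated tumor. At the other end of the list, Nck1, an adaptor found in most cell types, had 39.8, 35.0 and 40.2 CPM against 40.5, 39.1 and 41.7 CPM, a log2 fold change of 0.08 (SE 0.17).

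By role, surface receptors had the highest median (1.27, 5 of 5 positive), followed by kinases and adaptors (0.66, 14 of 15), while negative regulators (0.30, 6 of 8) and genes downstream of the adaptors (0.30, 7 of 10) had lower ones. Of the negative regulators, Pag1, a membrane adaptor that recruits the LCK inhibitor CSK, was chosen for mention after its values were seen. It had 9.08, 14.5 and 22.1 CPM in the controls and 6.18, 8.08 and 5.83 CPM in the treated tumors (log2 fold change -1.18, SE 0.38, DESeq2 adjusted p = 0.0787). Controls 6 and 7 were the highest, as they were for the hepatocyte genes. Trat1 and Sit1 did not pass the filter, and Trat1 had 0 counts in control 6.

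**Figure D4:**
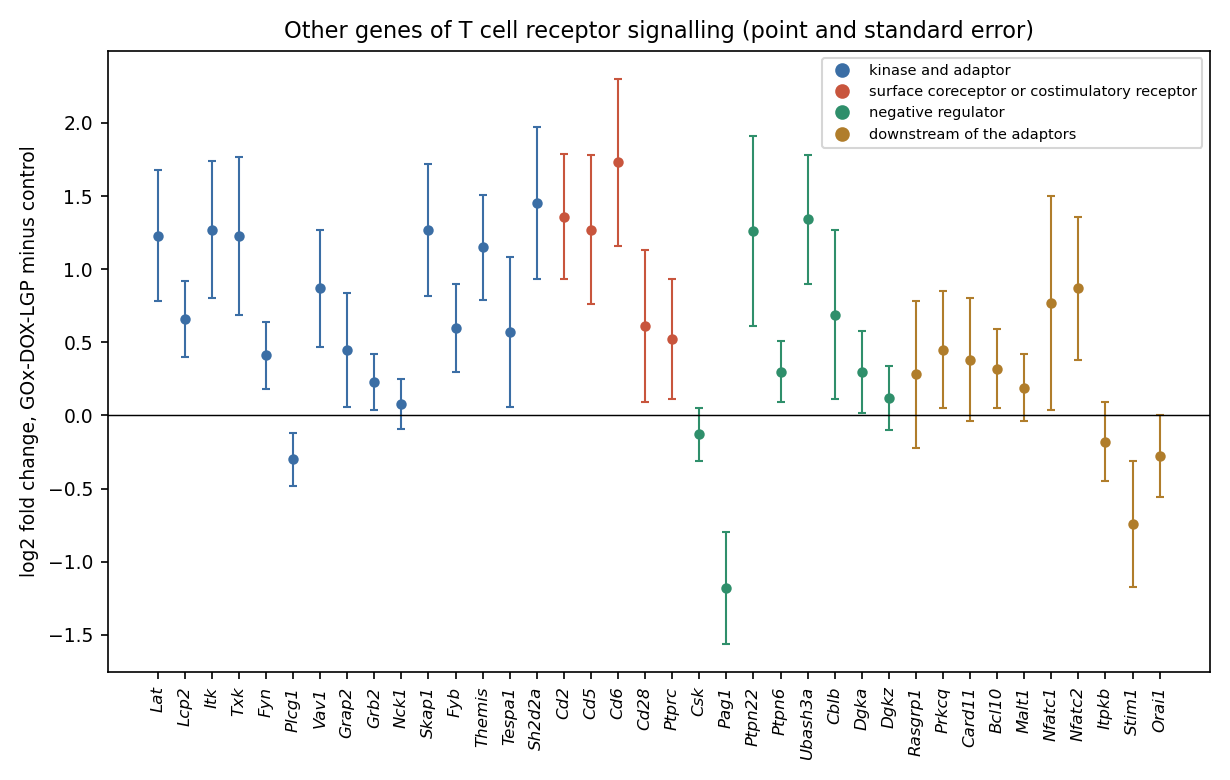
Log2 fold change (GOx-DOX-LGP minus control) with its standard error for the 38 tested genes of the signaling list, colored by role, 3 tumors per group. Surface receptors all lie above 0, from 0.52 to 1.73, and Pag1 is the lowest gene at -1.18.

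Of 8 general T cell genes, 7 had a positive log2 fold change (median 0.93). In 1 of the 8, Cd27, a costimulatory receptor of the TNF receptor family, every treated tumor lay above every control, a share near the 8.87% of all genes. Cd27 stood at 5.35, 2.37 and 3.01 CPM in the controls and 7.32, 10.0 and 13.6 CPM in the treated tumors (1.51, SE 0.43, DESeq2 adjusted p = 0.0232). Il7r, the receptor for interleukin 7 (1.29, SE 0.65), and Bcl11b, a factor required for T cell identity (0.76, SE 0.40), overlapped, as did Lef1 (0.26, SE 0.52).

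Genes linked to cytotoxic T cells were all on the positive side. Eomes, a T-box factor of CD8 T cells and NK cells, had 4.39, 4.49 and 3.98 CPM in the controls and 7.61, 11.3 and 10.0 CPM in the treated tumors. The controls were tightly grouped and all treated tumors were above them, with a log2 fold change of 1.17 (SE 0.27, edgeR adjusted p = 0.247, DESeq2 adjusted p = 0.00269). Ctsw (1.06, SE 0.43) and Crtam (1.41, SE 0.57), which are expressed by activated killer lymphocytes, were also separated, and Runx3 (1.34, SE 0.75), which silences Cd4 in the CD8 lineage, was not. In all, 5 of 5 had a positive log2 fold change, with a median of 1.17, and in 3 of 5 every treated tumor lay above every control (8.87% of all genes).

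Genes linked to helper and regulatory T cells were mixed. Zbtb7b, which directs cells to the CD4 lineage but is not confined to T cells, had 47.2, 74.2 and 99.9 CPM in the controls and 41.3, 46.3 and 36.5 CPM in the treated tumors (log2 fold change -0.83, SE 0.31, DESeq2 adjusted p = 0.181). Its high controls were again the 2 rich in hepatocyte RNA. Foxp3, the factor of regulatory T cells, had 2.19, 0.763 and 0.430 CPM against 2.52, 3.77 and 2.76 CPM (1.35, SE 0.61), and Il2ra, the interleukin 2 receptor alpha chain, had 5.13, 2.04 and 0.646 CPM against 7.02, 6.07 and 5.67 CPM (1.23, SE 0.68), both without overlap but not called by either tool. Maf had 57.2, 189 and 150 CPM in the controls and 67.8, 166 and 96.7 CPM in the treated tumors, with overlap (-0.26, SE 0.53). Maf and Zbtb7b, the 2 negative genes, both stood above Cd4 in every tumor, and which cells carried them was not tested. Cd40lg, the helper cell ligand, did not pass the filter and had 0 counts in control 7. Of 5 tested, 3 were positive and 2 negative. Every treated tumor lay above every control in 2 of the 5 (8.87% of all genes). In 1, Zbtb7b, every treated tumor lay below (8.31% of all genes).

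Other cell types that could carry these transcripts were read from marker lists. NK cell genes (4 used, 3 of them past the filter) summed to 6.71, 2.37 and 0.969 CPM in the controls and 5.68, 3.58 and 9.83 CPM in the treated tumors, and the groups overlapped for each tested gene. Klre1 was the most abundant, at 0.108 to 3.56 CPM, and Klrb1c had 0 counts in control 7 and treated tumor 1. The 7 dendritic cell genes, led by Itgax, summed to 135, 55.9 and 36.7 CPM against 86.3, 68.9 and 109 CPM, with a median log2 fold change of 0.04. Control 5, which had the most Cd4, Cd8a and Cd8b1 of the controls, had the highest dendritic cell sum of all 6 tumors. Itgax alone gave 86.2 CPM of that sum. Control 5 was the highest tumor for Itgax, Xcr1, Clec9a and Flt3, but not for Zbtb46, Cd209a and Siglech. The part of dendritic cells in the coreceptor levels was not tested.

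The 9 macrophage genes, led by Lyz2, summed to 1642, 1287 and 808 CPM in the controls and 1567, 4235 and 2209 CPM in the treated tumors (median log2 fold change 0.97, 9 of 9 positive). Treated tumor 2, the highest of these by far, had the lowest Cd4 of the treated tumors. B cell genes stayed low, from 2.11 to 8.99 CPM in sum and led by Cd79a, and Fcmr had 0 counts in treated tumor 2. The 10 leukocyte genes summed to 855, 605 and 463 CPM against 904, 1237 and 1144 CPM, and Lcp1, the most abundant of them, had a log2 fold change of 0.47 (SE 0.25). In 9 of these 10 genes every treated tumor lay above every control, against 8.87% of all genes. The part of leukocyte content in the T cell gene differences is addressed only by the Ptprc ratios and the leukocyte scaling given above.

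**Figure D5:**
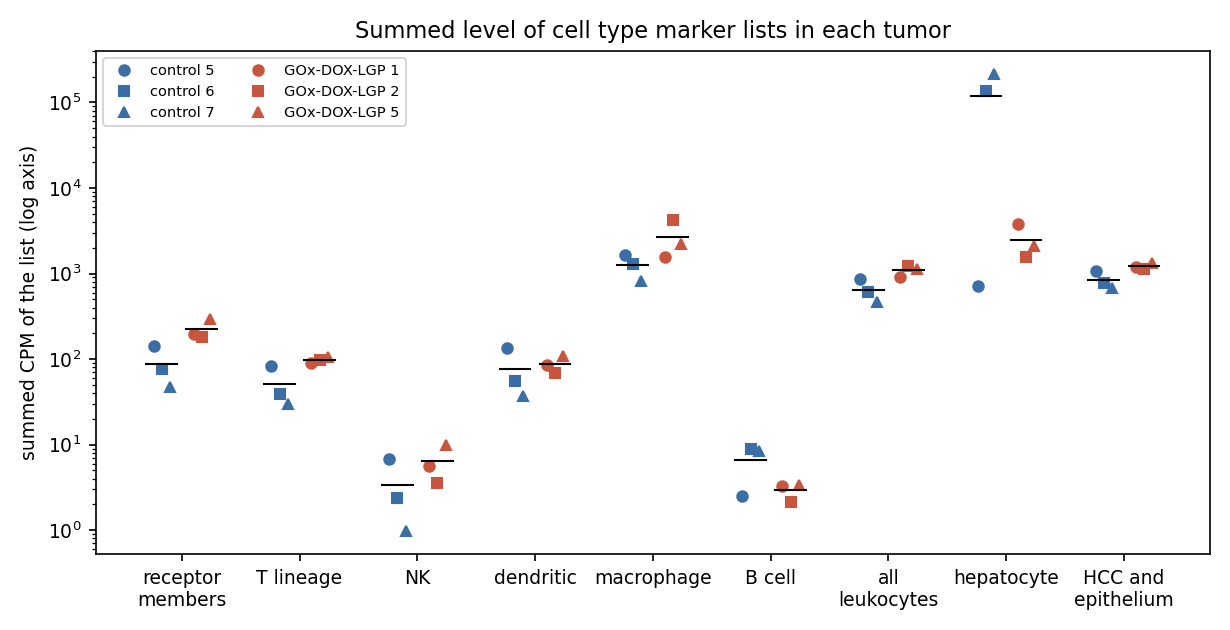
Summed TMM-normalized CPM (log axis) of the 10 receptor genes and of marker lists of other cell types in each tumor, controls in blue, GOx-DOX-LGP tumors in red, black lines at group means. Hepatocyte genes set controls 6 and 7 (135313 and 217461 CPM) apart from the other 4 tumors (709 to 3818 CPM), whereas control 5 lies close to the treated tumors for T lineage, NK, dendritic and leukocyte genes.

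Genes outside the complex with the most similar profiles were found by Pearson's r of log2 CPM over the 6 tumors, as a description with no test. The 5 most like the mean of the CD3 and zeta genes were Thg1l (0.998), Gm13408 (0.994), Gpr65 (0.994), H2-D1 (0.994) and Ier3ip1 (0.991), of which H2-D1 encodes an MHC class I heavy chain and Gpr65 a proton-sensing receptor of leukocytes. Those most like Cd8a were Anxa5 (0.999), Bcl2a1b, Sh3bgrl3 and BC022687 (0.998 each) and Sema4d (0.997). Those most like Cd4 were Nup210l and Hirip3 (0.998 each) and Etv4, Mbd4 and 1700061G19Rik (0.997 each). The 3 sets had no gene in common.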

How the data were processed

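Tumor RNA (RNeasy, KAPA mRNA HyperPrep) was sequenced in 6 libraries. The labels list Trimmomatic 0.38, HISAT2 2.1.0 and featureCounts 2.0.0, whereas the study's methods name TopHat and HTSeq; build, annotation and strand use were not given in the sources used here. The authors deposited raw counts per gene, without normalization or pooling, and signal values that are these counts divided by a size factor per library (0.5321 to 1.3219; the quotient was constant within 5.04e-08%). The signal values served as an alternative source for the ratios.

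Counts were analysed in R 4.3.3 with edgeR 4.0.16 (filterByExpr, TMM, quasi-likelihood test over all 6 libraries, Benjamini-Hochberg adjustment), with DESeq2 1.42.0 and limma 3.58.1 as alternatives. The edgeR and DESeq2 fits were run on simulated data, and the limma fit was not. Of 55536 genes, 15374 passed the filter. Library totals were 15529940 to 18401178 counts, and 3 counts, the floor, equal 0.132 to 0.323 CPM. Log2 CPM used a prior count of 2. Ratios used raw counts plus 0.5 and two-sided exact permutation tests over 22 pairs. Shared sequence was counted as 50-base stretches of GENCODE M21 transcripts. Scaling to leukocyte genes used the geometric mean of the counts of 10 genes. Intervals came from scipy 1.17.1 and figures from matplotlib 3.10.9, under Python 3.11.15.

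The members and lists were chosen with earlier results of these data known. The genes named were all 10 members, every receptor constant region, the 3 genes of each T cell list with the smallest unadjusted p and the 1 with the largest, the most abundant gene of each other list, markers with 0 counts, and the 5 genes most correlated with the CD3 and zeta mean, Cd4 and Cd8a. A gene that this rule selects is not reported here.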

Additional observations from a re-analysis of the deposited data

How the results depend on the processing

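Over 15 alternatives, Cd3d, Cd3e, Cd3g, Cd247, Trbc2, Cd8a, Cd8b1 and Lck kept a positive log2 fold change. Cd4 reversed with leukocyte scaling (-0.34) and with control 5 as the only control (-0.17), and Zap70 with leukocyte scaling (-0.78). The number of genes called was 1739 of 16513 with DESeq2 and 9254 of 15374 with limma voom and sample quality weights. It was 0 to 7745 when 1 library was left out, where only leaving out control 5 gave any call (7745 of 16249). The number of the 10 genes called was 5 with DESeq2, 9 with voom weights and 0 to 8 with 1 library left out. That of the 40 signaling genes was 3, 18 and 0 to 20. Both are to be read against the shares of all genes called in the same fits. The median log2 fold change of the 10 was 0.51 with leukocyte scaling and 0.74 with control 5 as the only control. It was 1.83 with library totals and 1.61 with upper quartile factors, where the median of all genes was 0.51 and 0.19. The log2 difference of Cd8a to Cd4 stayed positive under all 8 of its alternatives, as did that of Cd8b1 to Cd4. A pseudocount of 3 turned the near-zero differences of Cd8b1 to Cd8a (-0.03), Cd8b1 to Cd3e (-0.02) and Cd4 to Ptprc (-0.01). With 1 library left out, Cd8b1 to Cd8a ran from -0.14 to 0.19, Cd8a to Cd3e from -0.23 to 0.34, Cd8b1 to Cd3e from -0.31 to 0.22, Lck to Cd3e from -0.01 to 0.17, Cd4 to Ptprc from -0.11 to 0.23 and Zap70 to Ptprc from -0.75 to 0.22. The causes were not tested. No paired analysis was possible because the groups share a single replicate number. Control 7 had the fewest counts for the 10 genes, down to 15 for Cd247.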

Other observations

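The counts over receptor variable segments and over the beta chain constant regions were chosen for mention after their values were seen, and they belong to no comparison above. Over the 24 beta chain variable segments (Trbv), 269 counts were found in treated tumor 2, of which 199 fell on Trbv17 (74.0%, 95% exact binomial interval 68.3 to 79.1). The leading segment of the other 5 tumors was Trbv13-2 or Trbv19 and took 33.5% to 53.6% of 28 to 212 counts. The share of Trbc1 in the counts of Trbc1 and Trbc2 reached 17.2% in control 5, 28.0% in control 6 and 13.0% in control 7, and 9.07%, 38.1% and 12.9% in treated tumors 1, 2 and 5, so treated tumor 2 was also the highest there. Over the 58 alpha chain variable segments (Trav), treated tumor 2 had 53 counts, of which 26 fell on Trav3-1 (49.1%, interval 35.1 to 63.2). In control 5 the leading segment took 27.5% of 80 counts (interval 18.1 to 38.6). It took 16.7% of 66 counts in treated tumor 1 (8.62 to 27.9) and 18.8% of 64 in treated tumor 5 (10.1 to 30.5). Controls 6 and 7 held 12 and 3 counts in all and allow no comparison. Variable segments resemble each other, and the intervals cover counting error only.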
